A study of Mus musculus with 24 samples.

Results

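Most of the genes described here build or mark the motile cilium, the beating hair of multiciliated airway cells. The genes were taken from the epithelial count table by name: all genes whose symbol begins with Cfap, Dnah, Drc, Rsph or Tekt, plus 20 single genes such as Foxj1, Ccno, Deup1 and Hydin. A name does not show that a gene is used only in ciliated cells, and which cells the reads came from was not tested. This gave 66 of the 14557 genes in the table, and for each gene the listed transcript with the most counts across the 12 epithelial libraries was used. For Ccno, Cfap20 and Cfap410 that transcript is annotated as a retained intron and for Rsph3b as a processed transcript, so their values are those of transcripts not annotated as coding. Summing all listed transcripts of each of these 4 genes kept the direction and call of its fold changes. A motile cilium beats because dynein arms slide neighbouring microtubule doublets past each other. The nexin-dynein regulatory complex, the radial spokes and the central apparatus shape that sliding into a wave, and tektins and other inner proteins stiffen the doublets. In the airway, multiciliated cells arise from basal and club cells: they multiply their centrioles, switch on the transcription factors FOXJ1 and RFX, and then carry mucus along the epithelium.

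The libraries came from lung organoids in which 200000 EpCAM-positive epithelial cells of female wild-type C57BL6 mice had been grown in Matrigel with 200000 cells of the mouse lung fibroblast line CCL206. Each well received 0 (control), 12000 or 30000 nylon 6,6 fibers, each 12 micrometers wide and 31 micrometers long, doses that the labels equate to 0, 2000 and 5000 fibers in a smaller well. After 7 days the cells were split with EpCAM beads, and the epithelial fraction of 4 mice at each dose gave 12 libraries. The study asked how inhalable textile fibers act on the differentiation of the airway epithelium, so the fiber groups were each set against control and against each other. All groups shared the same mouse strain, the same fibroblast line and the same culture. The labels number the mice 1 to 4 at every dose, and equal numbers were taken as the same mouse. Values below are listed in the order of mice 1 to 4.

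Levels are CPM, counts scaled to a common library total after TMM normalization, and changes are log2 fold changes with their standard error from edgeR. A gene was called when its Benjamini-Hochberg adjusted p over all 13759 genes tested was under 0.05. Of the 66 genes, 61 had enough counts to be tested. Of these, 22 had all 12 libraries over the cutoff of 1.39 CPM, and for 21 control was the only group with all 4 over it. Some of the 21, such as Deup1 and Lrrc23 with 4 libraries over it, passed only through control. Others, such as Dnah10 with 10, also had enough libraries outside control. Counts and medians over the tested genes therefore describe a set that in part had to include lower genes. The count without the filter covers all 66. The table itself held no transcript with fewer than 60 counts over the 12 epithelial libraries, a total to which the smaller libraries with 30000 fibers added less. The 66 are thus not free of a selection on counts. In control, all 66 had counts in every library. The total of the representative transcripts was 7204371 to 9743738 counts in control, 6878550 to 10583357 with 12000 fibers and 2799765 to 3723250 with 30000 fibers, so 1 count was worth more CPM at the highest dose. Mitochondrially encoded genes held 5.20 to 7.77% of the counts in control, 5.33 to 6.91% with 12000 fibers and 14.3 to 16.3% with 30000 fibers.

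Summed over all 66 genes, the level was 680.0, 576, 511 and 637 CPM in control, 357, 350.0, 333 and 358 CPM with 12000 fibers and 424, 356, 335 and 376 CPM with 30000 fibers. All 8 fiber libraries lay below the lowest control library, and the 2 fiber doses overlapped. In bulk RNA, fewer ciliated cells and less of these transcripts per ciliated cell cannot be told apart. Within these sums, the summed level of the 5 CFAP genes grouped under none of the cilium structures did not fall. Together they held 69.7 to 72.2 CPM in control, 67.7 to 76.3 CPM with 12000 fibers and 86.1 to 107 CPM with 30000 fibers. Singly they differed: Cfap70 was called lower at both doses, Cfap36 higher at both and Cfap410 higher with 30000 fibers. Cfap97 was not called, and Cfap157, too low to be tested, lay below control with 12000 fibers.

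With 12000 fibers, 43 of the 61 tested genes were lower than in control and 1, Cfap36, was higher. Over all genes tested, 19.3% were called lower and 18.7% higher in that comparison. The median log2 fold change of the 61 was -1.17, against -0.0026 over all genes tested. Without the filter on low counts all 66 could be tested: 48 were called lower and 1 higher, with 18.7% and 18.2% of all genes as the background. In 51 of the 66, the 4 libraries with 12000 fibers all lay below the 4 control libraries, and in 2 they all lay above, where the shares of tested genes were 18.7% and 17.6%. Within each mouse the median log2 difference of the 66 genes was -1.005, -1.102, -0.745 and -0.9985.

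With 30000 fibers, 40 of the 61 were lower than in control and 3, Cfap36, Cfap410 and Tmem212, were higher. The background was wider at this dose, with 33.4% of all tested genes called lower and 32.2% higher. These shares, and 19.3% and 18.7% with 12000 fibers, are also the background of the counts by role below. The median log2 fold change was -1.01, against -0.026 over all genes tested. Without the filter 43 of the 66 were lower and 3 higher, against 31.9% and 31.6% of all genes. The groups did not overlap for 33 genes that were lower and 3 that were higher, with 29.4% and 28.6% of all tested genes as the background. The within-mouse medians were -0.85, -1.17, -0.80 and -0.98. The call was lower at both doses for 34 genes. It was lower with 12000 fibers and not called with 30000 for 8, lower and then higher for Tmem212, and lower only with 30000 fibers for 6, and 10 were called at neither dose. The difference between the doses is tested gene by gene further on, since both comparisons share the control libraries.

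**Figure D1:**
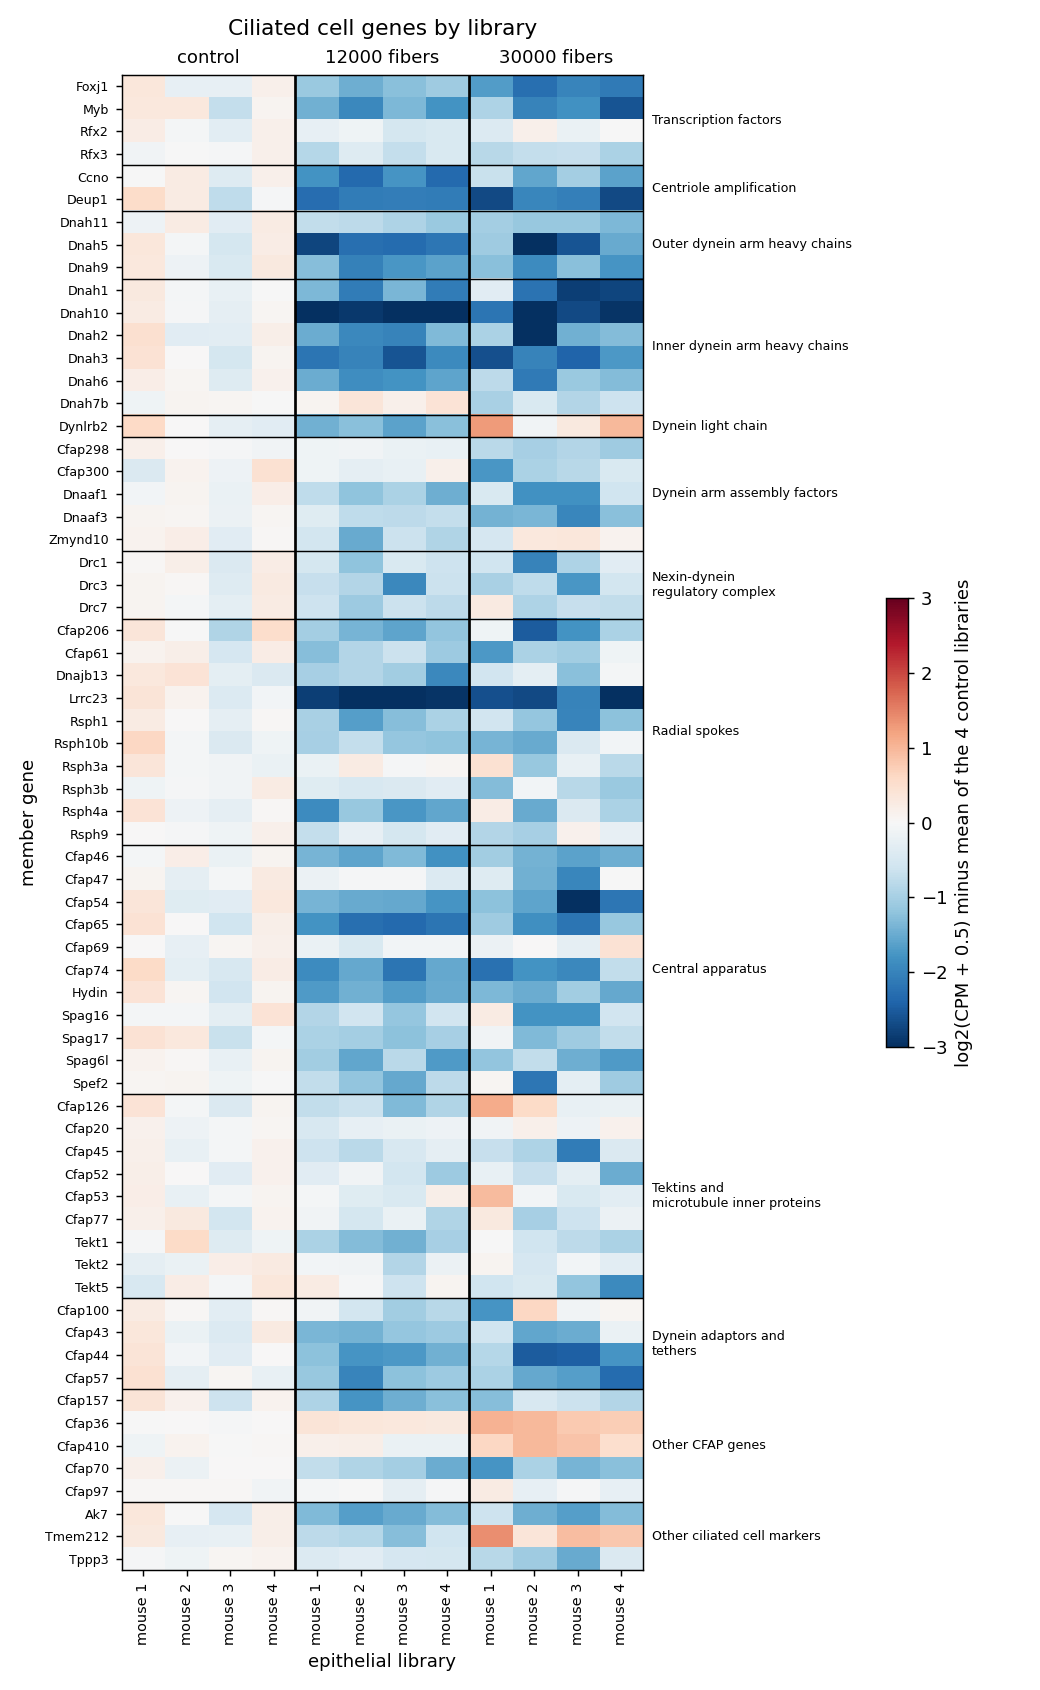
Each of the 66 genes (down the page, grouped by role) in each of the 12 epithelial libraries (across, grouped by fibers per well), coloured by log2(CPM + 0.5) minus the mean of the 4 control libraries; colours saturate at 3 log2 units. Most genes are blue in the 8 fiber libraries, while Cfap36 is red at both doses and Dynlrb2, Tmem212 and Cfap126 differ between the doses.

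Other cell types moved with these genes. For the counts called in this paragraph, the shares of all tested genes were 19.3% lower and 18.7% higher with 12000 fibers. With 30000 fibers they were 33.4% and 32.2%. The epithelial fraction held fibroblast transcripts: 20 fibroblast identity genes, among them the collagens and Dcn, summed to 8640 to 13571 CPM in control, 15776 to 17194 CPM with 12000 fibers and 14803 to 17820 CPM with 30000 fibers. Of the 18 tested, 17 were higher at each dose, and the sums of the fiber libraries did not overlap with control. Epcam itself averaged 649.8 ± 64.4 CPM in control, 483 ± 14.9 CPM with 12000 fibers and 239 ± 36.7 CPM with 30000 fibers (SD, n = 4 each). The 12 pan-epithelial markers together did not follow it at the lower dose: they summed to 6668 to 7731 CPM in control, 6848 to 7665 CPM with 12000 fibers and 3779 to 4478 CPM with 30000 fibers. Of these 12, 7 were lower and 2 higher with 12000 fibers, and 10 were lower with 30000. The epithelial cadherin Cdh1 averaged 1421 ± 99.0, 1521 ± 86.7 and 893 ± 67.3 CPM in control, 12000 and 30000 fibers. Of 10 airway basal cell markers 9 were lower at each dose, among them the basal keratin Krt5, with 702 ± 196, 52.5 ± 20.0 and 18.3 ± 7.58 CPM in control, 12000 and 30000 fibers. Of 10 club cell markers, 9 were lower at each dose, and their summed level was 2004 to 4267 CPM in control, 318 to 433 CPM with 12000 fibers and 449.7 to 687 CPM with 30000 fibers. The exception was Scgb1a1, the main club cell secretory protein, with 11.5 ± 5.10, 19.9 ± 6.94 and 209.7 ± 25.0 CPM. Of 11 alveolar type 2 markers 2 were higher with 12000 fibers, close to the 18.7% of all tested genes, and 5 were higher and 2 lower with 30000 fibers, beside 32.2% and 33.4%. Of 8 alveolar type 1 markers 3 were lower with 12000 fibers and 4 with 30000, and of 5 goblet cell markers 3 were lower and 1 higher at each dose. In lists this short a single call moves the share far, and the goblet share higher, 20.0%, was near or below that of all tested genes. The 5 immune markers summed to 194 to 268 CPM in control, 205 to 318 CPM with 12000 fibers and 345 to 523 CPM with 30000 fibers. Of these 5, 1 was called higher and 1 lower with 12000 fibers, and 3 higher and 1 lower with 30000 fibers. Pecam1, an endothelial marker, stayed under 3 CPM in all 12 libraries. The part of these other cell types in the cilium result was not tested, except for fibroblasts in the fit that follows. Among the controls, mouse 1 had the highest sum of the 66 cilium genes and the lowest fibroblast sum, and mouse 3 the lowest cilium sum and the highest fibroblast sum.

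When the mean log2 level of the fibroblast genes was added to the model as a covariate, 13 of the 43 genes stayed called lower with 12000 fibers, Cfap36 was no longer called, and over all genes 5.28% were lower and 1.02% higher. The 13 were Foxj1, Rfx3, Ccno, Deup1, Dnah3, Dnah5, Dnah6, Dnah9, Dnah10, Lrrc23, Cfap46, Cfap65 and Hydin. With 30000 fibers 7 of the 61 tested genes were called lower, all of them among the 40 (Foxj1, Rfx3, Dnah10, Lrrc23, Dnaaf3, Cfap298 and Tppp3). Another 2, Cfap36 and Dynlrb2, were called higher. Over all genes 14.3% were lower and 11.3% higher, so both shares of these genes were below the background at this dose. Between the doses the covariate gave 7 lower, the same genes as without it, and 14 higher, against 24.1% and 22.3% of all genes. Because the fibroblast level did not overlap between control and fiber libraries, its part and that of the fibers cannot be told apart in this fit.

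Among the transcription factors, Foxj1, the master switch of the motile cilium programme (chr11:116330704-116335399, GRCm38), had 75.6, 50.6, 50.1 and 65.9 CPM in control, 27.4, 21.3, 24.8 and 28.1 CPM with 12000 fibers, and 18.4, 12.0, 14.7 and 13.4 CPM with 30000 fibers. The 3 groups did not overlap, and each dose lay below the one before it. The log2 fold change was -1.25 ± 0.13 with 12000 fibers (adjusted p = 1.99e-06) and -2.06 ± 0.17 with 30000 fibers (adjusted p = 1.55e-08). Between 30000 and 12000 fibers it was -0.81 ± 0.18 (adjusted p = 0.00119). Rfx3, an RFX factor that binds X-box motifs of cilium genes, had 25.0, 26.3, 26.2 and 29.8 CPM in control, 14.5, 20.4, 16.0 and 19.4 CPM with 12000 fibers, and 14.9, 16.2, 16.5 and 13.7 CPM with 30000 fibers. Every fiber library was below every control library, and the 2 fiber doses overlapped. Its changes were -0.62 ± 0.11 (adjusted p = 1.69e-04) and -0.81 ± 0.13 (adjusted p = 2.10e-05).

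Myb, which acts early when a cell commits to many cilia, had 10.8, 10.8, 5.08 and 9.10 CPM in control, 2.87, 1.86, 3.07 and 2.14 CPM with 12000 fibers, and 4.31, 1.76, 2.06 and 1.00 CPM with 30000 fibers. All 8 fiber libraries were below the lowest control library, that of mouse 3. Myb changed by -1.84 ± 0.26 with 12000 fibers (adjusted p = 1.95e-05) and by -2.02 ± 0.35 with 30000 fibers (adjusted p = 4.34e-05), on 26 counts in all at the higher dose. The second RFX factor, Rfx2, had 15.5, 12.6, 10.5 and 14.7 CPM in control, 11.1, 12.1, 9.06 and 9.51 CPM with 12000 fibers, and 9.79, 14.8, 11.5 and 13.0 CPM with 30000 fibers. Its groups overlapped, and the fold changes were -0.35 ± 0.14 (adjusted p = 0.0587) and -0.12 ± 0.17 (adjusted p = 0.534). With the mouse as a block, Rfx2 was called lower at 12000 fibers (-0.35, adjusted p = 0.0455). The same call appeared without mouse 3 of the control group (adjusted p = 0.0164) or without mouse 2 of the 12000-fiber group (adjusted p = 0.0435).

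Both genes of centriole amplification fell at both doses. Deup1, the scaffold of the deuterosomes on which new centrioles form (chr9:15559864-15627933), had 4.28, 3.40, 1.43 and 2.73 CPM in control, 0.179, 0.266, 0.279 and 0.268 CPM with 12000 fibers, and 0.00, 0.353, 0.294 and 0.00 CPM with 30000 fibers. All fiber libraries were below the lowest control library, with 2 counts in each library at 12000 fibers and 2 counts in all 4 together at 30000 fibers. The 0 of mice 1 and 4 at 30000 fibers allows up to 1.17 and 1.00 CPM, the worth of 3 counts. The change was -3.54 ± 0.43 with 12000 fibers (adjusted p = 3.21e-06). With 30000 fibers the level was 0.0563 of control (95% exact binomial interval 0.00674 to 0.208, counting error only), with adjusted p = 2.56e-05. Ccno, a cyclin-like protein needed for that amplification, had 4.05, 4.86, 2.99 and 4.55 CPM in control, 0.806, 0.399, 0.836 and 0.402 CPM with 12000 fibers, and 2.35, 1.06, 1.76 and 1.00 CPM with 30000 fibers. No fiber library reached the control range, and all libraries with 30000 fibers lay above those with 12000. Its changes were -2.69 ± 0.30 (adjusted p = 1.02e-06) and -1.43 ± 0.33 (adjusted p = 8.42e-04). The difference of 30000 over 12000 fibers, 1.26 ± 0.45 (adjusted p = 0.0240), was lost when mouse 2 or 4 at 12000 fibers, or mouse 1 or 3 at 30000 fibers, was left out, with adjusted p between 0.0520 and 0.0994.

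RFX factors bind the X-box, a pair of inverted arms, and GTTGCC is a common form of an arm. RefSeq windows (GRCm38.p6) from 250 bases before to 50 bases after the start were at hand for 54 of the 66 genes, 61 windows in all. The letters GTTGCC stood on either strand in 26 of the 61 windows (42.6%), in 24 of the 54 genes, and in 12.5% of the 32851 windows of all genes. All motifs were searched on both strands. The whole motif was searched in 1 fixed form, GTTNCCNNGGNAAC, which overlaps GTTGCC where the N of the arm GTTNCC is G. That form stood in 0.451% of all windows and among these genes only in Cfap298, outside the stretch printed here. Pairs of arms with another spacing or with other letters were not searched. The Cfap298 stretch below, for example, holds GTTGCC and GGCAAC close together at another spacing. The forkhead core TGTTTA, searched because FOXJ1 is a forkhead factor, stood in 10 of the 61 windows (16.4%) and in 13.4% of all windows. GTTGCC was present in 16 of the 35 genes with a window that were lower at 12000 fibers and in 7 of the 15 that were not called, in 1 of 3 not tested and not in the 1 that was higher. A match says only that these letters are there. The 10 stretches of 60 bases below were chosen after the values were seen, to set lower genes (Ccno, Deup1, Dnah10, Lrrc23, Hydin, Cfap44, Tekt1) beside Dynlrb2, which differed between the doses, and beside Cfap298 and Dnah7b, which were lower only at 30000 fibers. Capitals mark GTTGCC or, on the other strand, GGCAAC.
Ccno: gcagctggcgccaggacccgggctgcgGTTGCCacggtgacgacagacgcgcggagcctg
Deup1: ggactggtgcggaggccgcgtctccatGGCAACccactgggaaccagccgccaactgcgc
Dnah10: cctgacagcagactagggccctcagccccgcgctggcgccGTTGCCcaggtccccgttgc
Lrrc23: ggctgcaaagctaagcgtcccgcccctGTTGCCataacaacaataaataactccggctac
Hydin: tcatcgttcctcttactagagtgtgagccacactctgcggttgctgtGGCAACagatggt
Cfap44: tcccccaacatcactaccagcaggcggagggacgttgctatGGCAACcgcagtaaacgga
Tekt1: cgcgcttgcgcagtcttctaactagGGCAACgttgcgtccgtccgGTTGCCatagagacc
Dynlrb2: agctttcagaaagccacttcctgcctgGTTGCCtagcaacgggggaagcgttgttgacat
Cfap298: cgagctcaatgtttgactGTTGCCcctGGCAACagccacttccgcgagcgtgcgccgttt
Dnah7b: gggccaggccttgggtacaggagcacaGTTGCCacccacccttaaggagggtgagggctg

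The stretches, read along each gene's own strand, lie at chr13:112987556-112987615 (+) for Ccno, chr9:15627893-15627952 (-) for Deup1, chr5:124725025-124725084 (+) for Dnah10, chr6:124779734-124779793 (-) for Lrrc23 and chr8:110266917-110266976 (+) for Hydin. Those of the other genes lie at chr16:44394739-44394798 (+) for Cfap44, chr11:72361883-72361942 (-) for Tekt1, chr8:116504937-116504996 (+) for Dynlrb2, chr16:90934877-90934936 (-) for Cfap298 and chr1:46066663-46066722 (+) for Dnah7b. In Lrrc23 the arm begins 39 bases before the start and in Dynlrb2 51 bases before it, and Lrrc23 was called lower at both doses, Dynlrb2 only with 12000 fibers.

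The 3 outer dynein arm heavy chains of the list, the motors that set beat frequency, were lower at both doses. Dnah5, the chain found in every outer arm, had 12.3, 9.14, 6.51 and 11.2 CPM in control, 0.986, 1.60, 1.53 and 1.74 CPM with 12000 fibers, and 4.31, 0.705, 1.18 and 3.00 CPM with 30000 fibers. The groups of fiber libraries lay below control without overlap, and the 30000-fiber libraries spread from 0.705 to 4.31 CPM. Dnah5 changed by -2.77 ± 0.29 with 12000 fibers (adjusted p = 6.23e-07) and by -2.14 ± 0.34 with 30000 fibers (adjusted p = 2.17e-05). Dnah9, its partner in the distal part of the cilium, had 11.6, 8.17, 6.51 and 11.2 CPM in control, 3.49, 1.86, 2.37 and 2.68 CPM with 12000 fibers, and 3.52, 2.12, 3.53 and 2.34 CPM with 30000 fibers. Again no fiber library reached control, with changes of -1.81 ± 0.22 (adjusted p = 3.21e-06) and -1.70 ± 0.28 (adjusted p = 2.52e-05). Dnah11, the partner in the proximal part, had 7.52, 10.1, 6.51 and 10.1 CPM in control, 4.84, 4.66, 4.18 and 3.61 CPM with 12000 fibers, and 3.91, 3.53, 3.53 and 3.00 CPM with 30000 fibers. Its fiber libraries also lay below all controls, at -0.98 ± 0.18 (adjusted p = 1.88e-04) and -1.31 ± 0.23 (adjusted p = 5.18e-05).

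Inner dynein arm heavy chains, which shape the bend, fell for 5 of 6 genes with 12000 fibers and for 6 of 6 with 30000. Dnah10, a chain of the double-headed inner arm (chr5:124725085-124834308), had 19.3, 15.6, 13.1 and 16.9 CPM in control, 1.43, 1.73, 1.39 and 1.20 CPM with 12000 fibers, and 3.13, 1.41, 2.06 and 1.67 CPM with 30000 fibers. The lowest control library, at 13.1 CPM, stood far above the highest fiber library, at 3.13 CPM. Its changes were -3.48 ± 0.19 (adjusted p = 7.23e-10) and -2.98 ± 0.23 (adjusted p = 1.19e-09). Dnah3 had 13.8, 10.0, 6.77 and 10.6 CPM in control, 1.79, 2.13, 1.25 and 2.28 CPM with 12000 fibers, and 1.17, 2.12, 1.47 and 2.67 CPM with 30000 fibers. The 2 fiber groups had the same mean, 1.86 and 1.86 CPM, and both lay below control, at -2.46 ± 0.24 (adjusted p = 2.04e-07) and -2.46 ± 0.31 (adjusted p = 8.27e-07). Dnah6 had 16.1, 14.4, 10.4 and 15.2 CPM in control, 4.57, 3.46, 3.62 and 4.28 CPM with 12000 fibers, and 7.83, 2.82, 6.18 and 5.34 CPM with 30000 fibers. No fiber library reached control. The changes were -1.80 ± 0.19 with 12000 fibers (adjusted p = 4.87e-07) and -1.35 ± 0.22 with 30000 fibers (adjusted p = 2.33e-05), and the difference between the doses did not pass (0.45 ± 0.26, adjusted p = 0.147). Dnah1 and Dnah2 were lower at both doses, with changes between -2.09 and -1.77.

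Dnah7b did not follow the other inner arm chains. It had 6.71, 7.87, 7.68 and 7.38 CPM in control, 7.88, 9.72, 8.22 and 10.0 CPM with 12000 fibers, and 3.52, 5.29, 3.82 and 4.67 CPM with 30000 fibers. At 12000 fibers all libraries were above control, though the change of 0.27 ± 0.14 did not pass (adjusted p = 0.151), and at 30000 fibers all were below it (-0.77 ± 0.20, adjusted p = 0.00182). The difference of 30000 over 12000 fibers was -1.04 ± 0.19 (adjusted p = 1.37e-04). Dnah7b has near-identical copies, Dnah7a and Dnah7c, so its reads may be shared with them and the value is uncertain.

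Dynlrb2, a roadblock-type dynein light chain, had 3.70, 2.33, 1.82 and 1.72 CPM in control, 0.538, 0.666, 0.418 and 0.669 CPM with 12000 fibers, and 6.26, 2.12, 2.94 and 5.01 CPM with 30000 fibers. The 12000-fiber libraries were below control without overlap, and the 30000-fiber libraries were above the 12000-fiber ones and overlapped with control. The change was -2.03 ± 0.39 with 12000 fibers (adjusted p = 3.45e-04), 0.74 ± 0.33 with 30000 fibers (adjusted p = 0.0559) and 2.77 ± 0.42 for 30000 over 12000 fibers (adjusted p = 1.54e-05). At 30000 fibers over control it was called higher once mouse entered the model as a block (0.77, adjusted p = 0.0308) and with summed transcripts (1.02, adjusted p = 0.0116). It was also called without mouse 1 of the control group or mouse 2 or 3 of the 30000-fiber group, with adjusted p of 0.00928, 0.0207 and 0.0435. Its transcript of 515 bases is the shortest of these genes, and with the trend on transcript length removed the value at 30000 fibers was -1.07.

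The dynein arm assembly factors, cytoplasmic proteins that fold and load the motors, did not all follow the same order. Dnaaf3 had 7.52, 7.39, 6.25 and 7.38 CPM in control, 5.47, 3.99, 3.90 and 4.15 CPM with 12000 fibers, and 2.35, 2.47, 1.47 and 2.67 CPM with 30000 fibers. The groups were ordered without overlap, lower at each dose, with changes of -0.68 ± 0.17 and -1.69 ± 0.24 (adjusted p = 0.00308 and 5.38e-06), and the doses differed (adjusted p = 0.00304). Cfap298, also an assembly factor, had 37.0, 33.5, 32.4 and 31.2 CPM in control, 30.5, 31.2, 29.0 and 28.6 CPM with 12000 fibers, and 18.8, 16.6, 17.9 and 15.7 CPM with 30000 fibers. Its libraries with 12000 fibers were all just below control without a call (-0.17 ± 0.082, adjusted p = 0.111), and those with 30000 fibers were near 17.2 CPM on average (-0.96 ± 0.10, adjusted p = 8.89e-08). Zmynd10 had 2.66, 2.92, 1.82 and 2.53 CPM in control, 1.52, 0.533, 1.39 and 1.07 CPM with 12000 fibers, and 1.57, 3.17, 3.24 and 2.67 CPM with 30000 fibers. It was lower with 12000 fibers (-1.10 ± 0.29, adjusted p = 0.00572), while its values with 30000 fibers overlapped with control (0.11 ± 0.32, adjusted p = 0.776). The dose difference of Zmynd10 was 1.21 ± 0.36 (adjusted p = 0.00810). Cfap300 averaged 2.58, 2.28 and 1.07 CPM in control, 12000 and 30000 fibers and was called lower only at 30000 (-1.23, adjusted p = 0.0103). For Cfap300, the difference between the doses (-1.04, adjusted p = 0.0372) was lost by DESeq2, with summed transcripts and without mouse 1 or 4 at 12000 fibers or mouse 1, 2 or 3 at 30000 fibers, with adjusted p between 0.0537 and 0.117.

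All 3 genes of the nexin-dynein regulatory complex, which links neighbouring doublets, were lower with 12000 fibers. Drc3 had 5.44, 5.25, 3.78 and 6.27 CPM in control, 2.96, 2.53, 0.975 and 3.08 CPM with 12000 fibers, and 2.35, 2.82, 1.18 and 3.34 CPM with 30000 fibers. Both fiber groups lay below control without overlap, at -1.09 ± 0.27 (adjusted p = 0.00282) and -1.13 ± 0.34 (adjusted p = 0.00705). Drc1 had 4.51, 4.96, 3.12 and 5.16 CPM in control, 2.87, 1.60, 3.07 and 2.68 CPM with 12000 fibers, and 2.74, 0.705, 2.06 and 3.34 CPM with 30000 fibers. The 12000-fiber libraries lay below the lowest control library, while mouse 4 at 30000 fibers lay within the control range. Its changes were -0.80 ± 0.25 (adjusted p = 0.0175) and -1.02 ± 0.34 (adjusted p = 0.0118). The first was lost without mouse 4 of the control group (adjusted p = 0.0546) or mouse 2 at 12000 fibers (adjusted p = 0.0653), and the second without mouse 2 at 30000 fibers (adjusted p = 0.0564). Drc7 had 3.35, 3.01, 2.47 and 3.84 CPM in control, 1.88, 1.20, 1.81 and 1.61 CPM with 12000 fibers, and 3.91, 1.41, 1.76 and 1.67 CPM with 30000 fibers. It was lower with 12000 fibers (-0.95 ± 0.26, adjusted p = 0.00659) and was not called with 30000 (-0.58 ± 0.32, adjusted p = 0.117), where mouse 1 stood above the other mice. Without that library the value was -0.97 (adjusted p = 0.0185).

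Radial spokes carry signals from the central apparatus to the dynein arms. Of 10 spoke genes 8 were tested, and 5 were lower at each dose. Lrrc23, a protein of the third spoke (chr6:124769863-124779727), had 9.83, 8.07, 5.47 and 6.98 CPM in control, 0.627, 0.266, 0.00 and 0.535 CPM with 12000 fibers, and 0.783, 0.705, 1.47 and 0.334 CPM with 30000 fibers. It had the largest fall of all tested members at 12000 fibers, and no fiber library exceeded 1.47 CPM. The 0 of mouse 3 at 12000 fibers allows up to 0.418 CPM. The change was -4.23 ± 0.36 with 12000 fibers (adjusted p = 6.00e-08) and -3.14 ± 0.42 with 30000 fibers (adjusted p = 1.81e-06). Rsph1, a spoke head protein, had 7.29, 6.12, 4.95 and 6.27 CPM in control, 2.87, 1.60, 2.23 and 2.95 CPM with 12000 fibers, and 3.91, 2.47, 1.18 and 2.34 CPM with 30000 fibers. Its groups did not overlap with control, at -1.33 ± 0.23 (adjusted p = 1.25e-04) and -1.36 ± 0.30 (adjusted p = 4.41e-04).

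Rsph4a, a spoke head protein as well, had 6.71, 4.37, 4.04 and 5.06 CPM in control, 0.986, 2.00, 1.11 and 1.34 CPM with 12000 fibers, and 5.87, 1.41, 3.53 and 2.34 CPM with 30000 fibers. It was below control in all libraries with 12000 fibers (-1.91 ± 0.30, adjusted p = 5.02e-05) and overlapped with control at 30000 (-0.64 ± 0.32, adjusted p = 0.0880). The doses differed by 1.27 ± 0.39 (adjusted p = 0.0100). Mouse 1 at 30000 fibers decided both: without it the difference between the doses was 0.89 (adjusted p = 0.0820) and the change at 30000 fibers over control was -1.02 (adjusted p = 0.0153). Rsph10b had 7.87, 4.76, 3.52 and 4.45 CPM in control, 2.24, 2.80, 1.95 and 1.87 CPM with 12000 fibers, and 1.57, 1.41, 3.53 and 4.67 CPM with 30000 fibers. It was lower with 12000 fibers (-1.21 ± 0.28, adjusted p = 0.00207), and its call at 30000 fibers (-0.84 ± 0.34, adjusted p = 0.0369), where mice 3 and 4 lay in the control range, changed with the processing. It was lost in the fit with mouse as a block (adjusted p = 0.0523), with summed transcripts (adjusted p = 0.166), in a fit of the 2 groups only (adjusted p = 0.0632), and without mouse 1 of the control group, mouse 1 or mouse 2 at 30000 fibers (adjusted p of 0.115, 0.119 and 0.135). Rsph3b, a spoke stalk protein, had 5.09, 5.44, 5.21 and 6.77 CPM in control, 4.21, 3.86, 4.04 and 4.28 CPM with 12000 fibers, and 1.96, 5.29, 2.94 and 2.34 CPM with 30000 fibers. It was called lower only at 30000 fibers, where mouse 2 lay within the control range (-0.84 ± 0.26, adjusted p = 0.00686), and at 12000 fibers all libraries were below control with -0.46 ± 0.19 (adjusted p = 0.0677). That value passed in a fit of the 2 groups only (adjusted p = 0.0451) and without mouse 2 at 30000 fibers (adjusted p = 0.0403). Rsph3a, its near-identical copy, had means of 2.18, 2.21 and 1.65 CPM over the doses and was not called, and reads may be shared between the pair. Cfap206 averaged 4.62, 1.48 and 1.79 CPM and was lower at both doses, the second time not without mouse 3 at 30000 fibers (-1.20, adjusted p = 0.0539). Rsph9, with 4.03, 2.82 and 2.87 CPM, was called at neither dose.

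The central apparatus, the pair of microtubules in the core of the cilium and its projections, was represented by 11 genes. Of these, 10 were tested, and 8 were lower at each dose, with medians of -1.67 at 12000 fibers and -1.55 at 30000 fibers. Hydin, a giant projection protein, had 10.5, 8.17, 5.08 and 8.29 CPM in control, 2.06, 2.53, 2.09 and 2.41 CPM with 12000 fibers, and 2.74, 2.47, 3.53 and 2.34 CPM with 30000 fibers. All fiber libraries were below the lowest control library, and the change was -1.83 ± 0.22 (adjusted p = 2.29e-06) and -1.52 ± 0.27 (adjusted p = 5.16e-05). Cfap65 had 20.7, 15.3, 9.89 and 17.2 CPM in control, 4.03, 2.80, 2.65 and 2.95 CPM with 12000 fibers, and 7.05, 3.88, 2.94 and 6.68 CPM with 30000 fibers. Both fiber groups stood clear of control, at -2.31 ± 0.24 (adjusted p = 7.55e-07) and -1.65 ± 0.27 (adjusted p = 3.75e-05). With the mouse as a block Cfap65 was also higher with 30000 than with 12000 fibers (0.71, adjusted p = 0.0129), and without the block that difference was 0.66 ± 0.34 (adjusted p = 0.106). Cfap69 was the exception among the abundant genes of this group, with 11.3, 9.33, 11.7 and 12.4 CPM in control, 9.68, 7.99, 10.6 and 10.6 CPM with 12000 fibers, and 9.79, 11.3, 9.12 and 15.4 CPM with 30000 fibers. Its groups overlapped at both doses (-0.20 ± 0.15 and 0.025 ± 0.17, adjusted p = 0.298 and 0.907).

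Cfap46, Cfap54, Cfap74 and Spag6l were lower at both doses with no overlap, with log2 fold changes of -1.84, -1.81, -2.39 and -1.54 with 12000 fibers. Spag6l has a near-identical copy, Spag6, so its reads may be shared. Spag17 averaged 4.47, 1.81 and 2.36 CPM over the doses and was lower at both. Its call at 30000 fibers (adjusted p = 0.0170) was lost without mouse 2 or mouse 3 of that group (adjusted p of 0.0655 and 0.0652) and with summed transcripts (adjusted p = 0.0511). Spef2, with 3.35, 1.39 and 1.96 CPM, was called only at 12000 fibers. Cfap47, with 3.75, 3.28 and 2.01 CPM, was called only at 30000 fibers (-0.93, adjusted p = 0.0289), and not without mouse 4 of the control group or mouse 2 or 3 at 30000 fibers (adjusted p of 0.0691, 0.103 and 0.152), nor with summed transcripts (adjusted p = 0.0534).

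**Figure D2:**
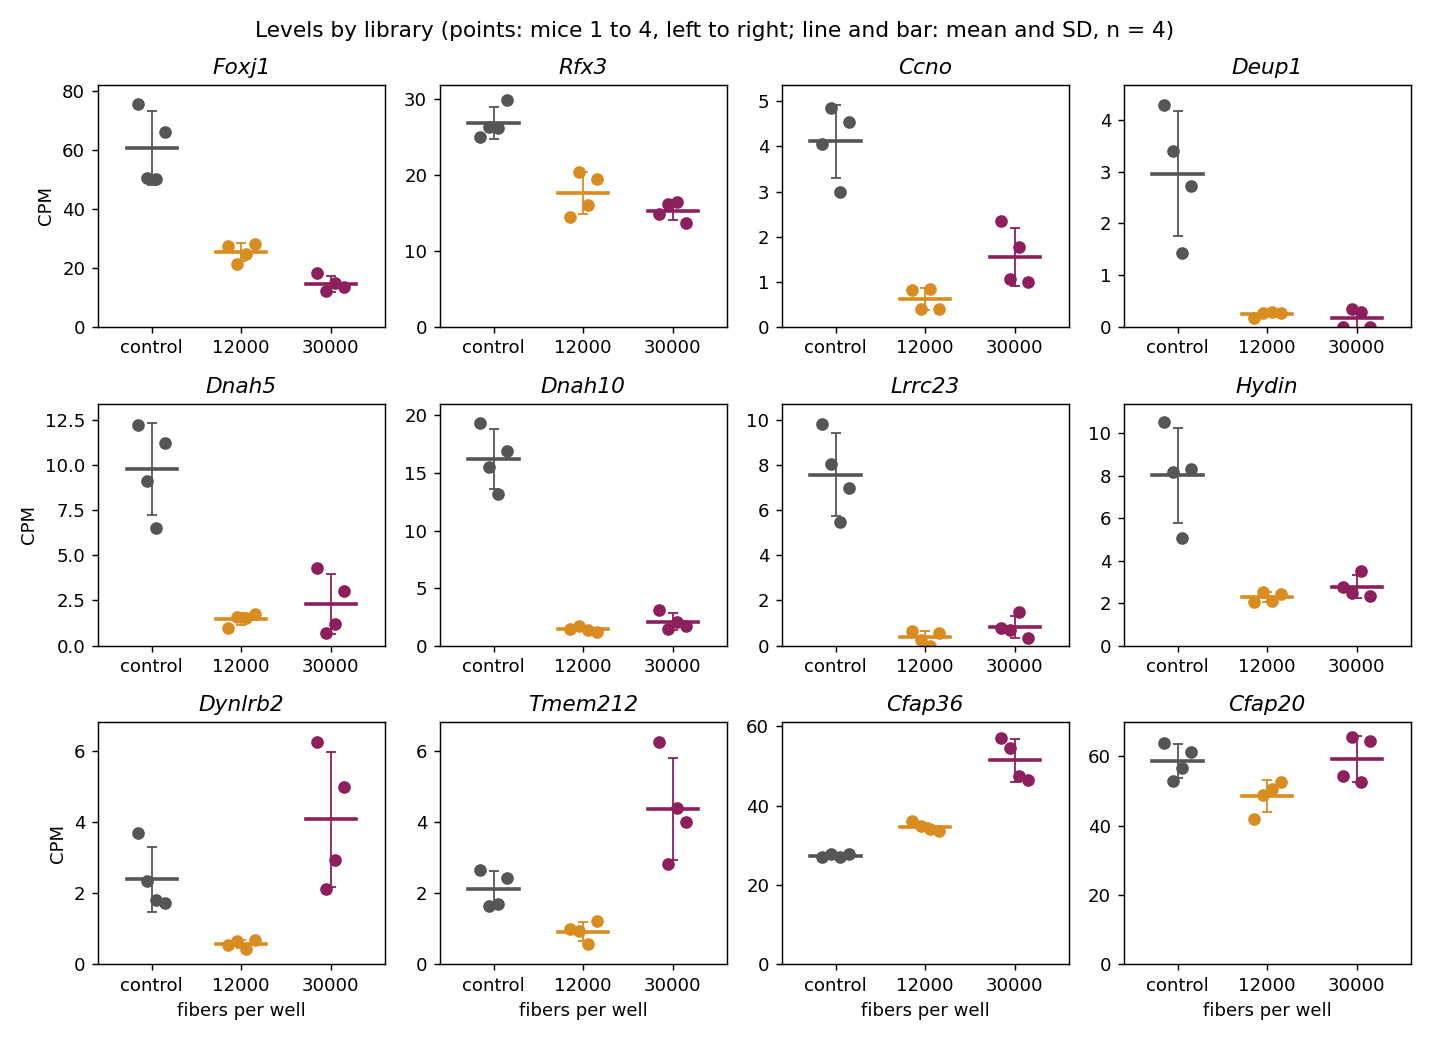
CPM (y axes, starting at 0) of 12 genes in each epithelial library by fibers per well (x axes); points are mice 1 to 4, lines are group means and bars SDs (n = 4). Foxj1 averaged 60.6, 25.4 and 14.6 CPM in control, 12000 and 30000 fibers, while Dynlrb2 and Tmem212 were lowest with 12000 fibers and Cfap36 was highest with 30000.

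Tektins and other microtubule inner proteins, which line the doublets, numbered 9, all tested. With 12000 fibers 4 of 9 were lower (44.4%, against 19.3% of all tested genes) and with 30000 fibers 2 of 9 (22.2%, against 33.4%). The medians were -0.56 and -0.55. In a set of 9 such shares move with a single call, so at 30000 fibers the count was not set apart from the background. Tekt1 had 2.31, 3.79, 1.69 and 2.12 CPM in control, 0.986, 0.666, 0.557 and 0.937 CPM with 12000 fibers, and 2.35, 1.41, 1.18 and 1.00 CPM with 30000 fibers. It was lower with 12000 fibers (-1.62 ± 0.33, adjusted p = 5.82e-04) and not called with 30000 (-0.79 ± 0.39, adjusted p = 0.0761), where mouse 1 lay in the control range. Without that library, or without mouse 3 of the control group, the second value passed (adjusted p of 0.0410 and 0.0393). Cfap45 had 11.7, 8.85, 10.0 and 11.5 CPM in control, 6.63, 5.72, 7.39 and 8.57 CPM with 12000 fibers, and 6.26, 5.29, 2.06 and 7.68 CPM with 30000 fibers. Its fall at 12000 fibers (-0.57 ± 0.19, adjusted p = 0.0227) was lost without mouse 4 of the control group or mouse 1 or 2 at 12000 fibers (adjusted p of 0.0642, 0.0704 and 0.0746) and with summed transcripts (adjusted p = 0.0820). The fall at 30000 fibers was -1.01 ± 0.25 (adjusted p = 0.00140).

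Cfap126, known as flattop, had 9.48, 6.71, 5.08 and 7.38 CPM in control, 4.03, 4.26, 2.51 and 3.48 CPM with 12000 fibers, and 15.7, 10.6, 5.88 and 6.01 CPM with 30000 fibers. The 12000-fiber libraries were below all others, at -0.99 ± 0.26 against control (adjusted p = 0.00627), and the 30000-fiber libraries overlapped with control (0.37 ± 0.27, adjusted p = 0.246). With the trend on transcript length removed that last value was -0.42. The dose difference of 1.36 ± 0.30 passed (adjusted p = 9.08e-04). Cfap20, a protein of the inner junction of the doublet, had 63.8, 52.9, 56.6 and 61.4 CPM in control, 41.8, 49.0, 50.6 and 52.5 CPM with 12000 fibers, and 54.4, 65.6, 52.6 and 64.4 CPM with 30000 fibers. It was among the most abundant of these genes in every group and its differences were small: -0.28 ± 0.087 with 12000 fibers (adjusted p = 0.0155), 0.014 ± 0.095 with 30000 fibers (adjusted p = 0.908) and 0.29 ± 0.10 for 30000 over 12000 fibers (adjusted p = 0.0141). The first was lost without mouse 1 at 12000 fibers (adjusted p = 0.0818), and the last without that library or mouse 2 or 4 at 30000 fibers (adjusted p of 0.0611, 0.0597 and 0.0556). Tekt5, with 2.69, 2.52 and 1.14 CPM over the doses, was lower only at 30000 fibers (-1.29, adjusted p = 0.0131), not without mouse 4 of that group (-0.98, adjusted p = 0.0618). Tekt2, Cfap52, Cfap53 and Cfap77 were called at neither dose.

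Of the 4 genes that tether or adapt inner dyneins, 3 were lower at each dose. Cfap44 and Cfap43 form the tether of the double-headed inner arm. Cfap44 had 13.5, 9.72, 8.07 and 10.4 CPM in control, 4.12, 2.66, 2.79 and 3.48 CPM with 12000 fibers, and 5.48, 1.41, 1.47 and 2.67 CPM with 30000 fibers. Both fiber groups lay below control without overlap, at -1.65 ± 0.23 (adjusted p = 1.45e-05) and -1.97 ± 0.31 (adjusted p = 1.30e-05). Cfap43 had 17.1, 11.6, 9.89 and 16.3 CPM in control, 4.84, 4.66, 5.71 and 6.02 CPM with 12000 fibers, and 8.61, 4.23, 4.41 and 11.7 CPM with 30000 fibers. It was below control in all libraries with 12000 fibers, and mouse 4 at 30000 fibers lay within the control range (-1.38 ± 0.23 and -0.94 ± 0.27, adjusted p = 1.53e-04 and 0.00514). Cfap57, at 2.04, 0.497 and 0.357 CPM, was lower at both doses. Cfap100 had 3.12, 2.62, 1.95 and 2.63 CPM in control, 2.33, 1.60, 0.975 and 1.20 CPM with 12000 fibers, and 0.391, 4.23, 2.35 and 2.67 CPM with 30000 fibers. It overlapped with control at both doses and its library of mouse 1 at 30000 fibers held a single count. Cfap100 changed by -0.70 ± 0.33 (adjusted p = 0.101) and -0.080 ± 0.39 (adjusted p = 0.865), and the first passed without mouse 1 at 12000 fibers (-1.03, adjusted p = 0.0419).

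**Figure D3:**
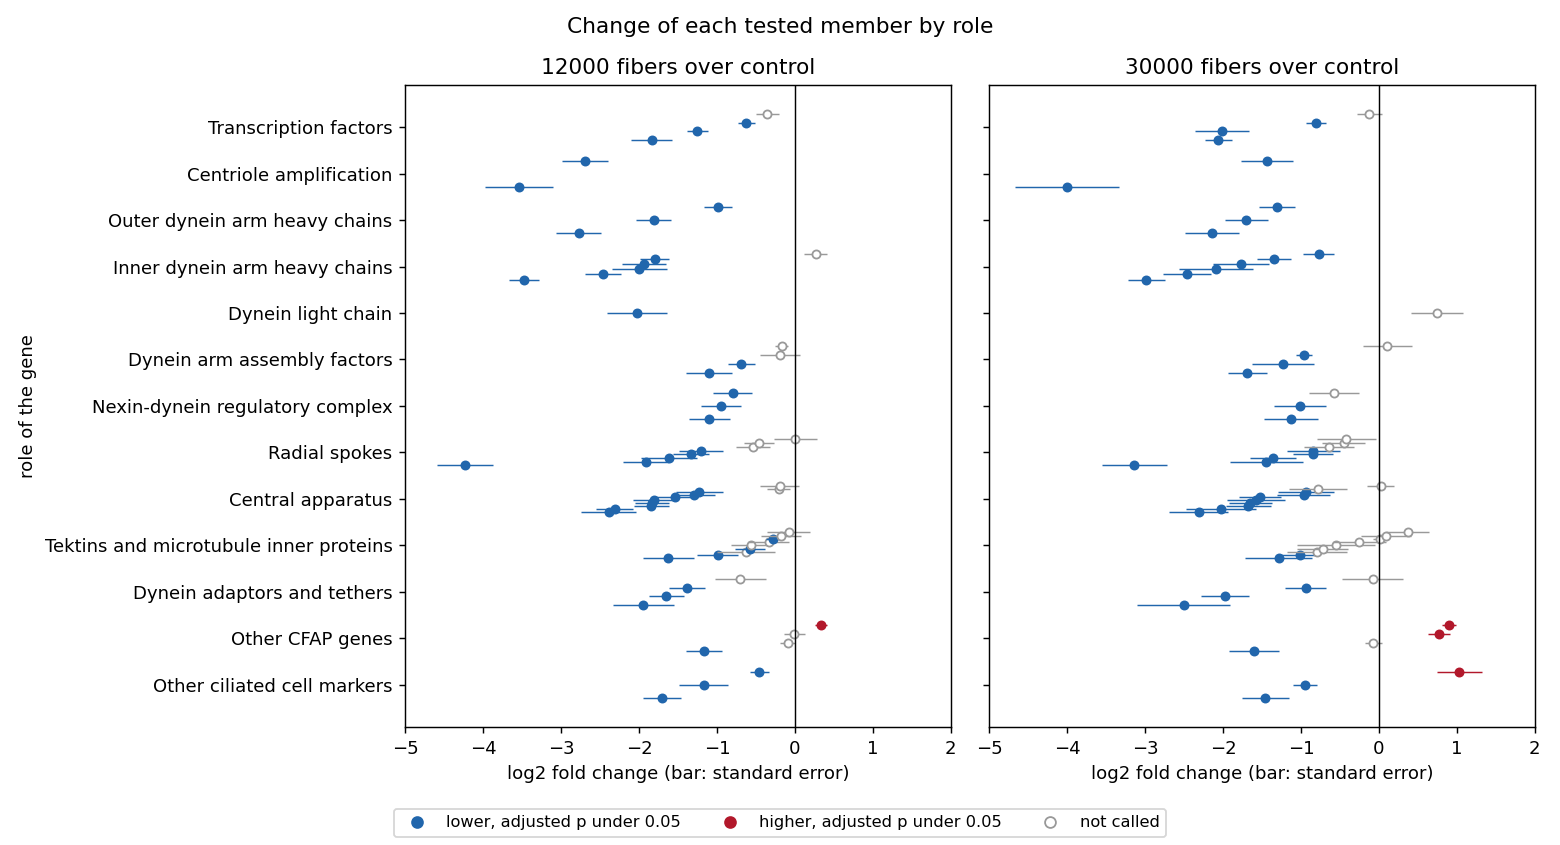
Log2 fold change over control (x axis) of each of the 61 tested genes by role (y axis), with 12000 fibers at left and 30000 fibers at right; bars are standard errors, filled points were called at an adjusted p under 0.05. Most filled points are left of 0 in both panels, and the points right of 0 that were called are Cfap36 at both doses and Cfap410 and Tmem212 at 30000 fibers.

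Among CFAP genes placed in none of these structures, Cfap36, which binds the small GTPase ARL3 (chr11:29221532-29247409), had 27.1, 27.8, 27.0 and 27.8 CPM in control, 36.0, 34.9, 34.1 and 33.6 CPM with 12000 fibers, and 57.2, 54.6, 47.4 and 46.4 CPM with 30000 fibers. The groups rose in order of dose with no overlap, and the control libraries lay within 1 CPM of each other. The change was 0.34 ± 0.079 with 12000 fibers (adjusted p = 0.00201) and 0.90 ± 0.085 with 30000 fibers (adjusted p = 1.62e-08). Between 30000 and 12000 fibers it was 0.56 ± 0.084 (adjusted p = 1.15e-05), and with summed transcripts 0.13 (adjusted p = 0.244). Cfap410, known in human for retinal and skeletal ciliopathy, had 9.37, 11.1, 10.2 and 10.4 CPM in control, 11.4, 11.6, 8.92 and 8.84 CPM with 12000 fibers, and 16.1, 20.4, 18.8 and 14.7 CPM with 30000 fibers. With 12000 fibers it overlapped with control (-0.0044 ± 0.13, adjusted p = 0.985), and with 30000 fibers all libraries were higher (0.77 ± 0.15, adjusted p = 1.11e-04). Cfap97 had 28.1, 28.1, 28.1 and 25.7 CPM in control, 26.2, 27.3, 22.7 and 26.8 CPM with 12000 fibers, and 32.5, 22.9, 26.8 and 23.0 CPM with 30000 fibers. It did not separate the groups (-0.093 ± 0.10 and -0.069 ± 0.11, adjusted p = 0.486 and 0.598). Cfap70, a protein bound to outer dynein arms, is not a heavy chain and was grouped here rather than with the outer arm heavy chains. It had 4.40, 3.40, 3.91 and 3.94 CPM in control, 2.15, 1.86, 1.67 and 1.07 CPM with 12000 fibers, and 0.783, 1.76, 1.18 and 1.34 CPM with 30000 fibers. All fiber libraries were below control, at -1.17 ± 0.23 (adjusted p = 4.86e-04) and -1.60 ± 0.32 (adjusted p = 2.23e-04).

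The last 3 genes serve as markers of ciliated cells. Ak7, an adenylate kinase of the cilium, had 7.40, 5.64, 3.91 and 6.47 CPM in control, 1.97, 1.46, 1.67 and 2.01 CPM with 12000 fibers, and 3.52, 1.76, 1.47 and 2.00 CPM with 30000 fibers. Its fiber groups did not overlap with control, at -1.70 ± 0.24 (adjusted p = 1.53e-05) and -1.46 ± 0.30 (adjusted p = 2.76e-04). Tppp3, a tubulin polymerization protein, had 25.4, 24.1, 27.6 and 28.1 CPM in control, 19.6, 20.5, 18.4 and 18.1 CPM with 12000 fibers, and 14.5, 12.3, 8.82 and 19.4 CPM with 30000 fibers. It fell with no overlap at either dose, with changes of -0.46 ± 0.12 and -0.95 ± 0.15 (adjusted p = 0.00655 and 2.11e-05). The difference between the doses (-0.49 ± 0.16, adjusted p = 0.0131) was lost without mouse 3 at 30000 fibers (-0.31, adjusted p = 0.0864).

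Tmem212, a membrane protein of ciliated cells, had 2.66, 1.65, 1.69 and 2.43 CPM in control, 0.986, 0.932, 0.557 and 1.20 CPM with 12000 fibers, and 6.26, 2.82, 4.41 and 4.01 CPM with 30000 fibers. The 3 groups did not overlap, with 12000 fibers lowest and 30000 fibers highest. It was lower with 12000 fibers (-1.17 ± 0.31, adjusted p = 0.00576) and higher with 30000 fibers (1.03 ± 0.29, adjusted p = 0.00405), and the doses differed by 2.20 ± 0.34 (adjusted p = 1.48e-05). Its transcript has 716 bases, and with the trend on transcript length removed the value at 30000 fibers over control turned to -0.30.

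Dnaaf1, Cfap61, Dnajb13, Spag16 and Cfap157 had too few counts to be tested. Their means were 1.27, 0.339 and 0.363 CPM for Dnaaf1, 1.17, 0.351 and 0.412 CPM for Cfap61 and 1.46, 0.350 and 0.867 CPM for Dnajb13 in control, 12000 and 30000 fibers. Spag16 averaged 1.26, 0.515 and 0.558 CPM and Cfap157 averaged 1.72, 0.360 and 0.750 CPM. In each of the 5 the 4 libraries with 12000 fibers lay below the 4 control libraries, and all but Dnaaf1 overlapped with control at 30000 fibers.

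The 2 doses were also compared directly. Of the 61 tested genes, 7 were lower with 30000 than with 12000 fibers (Foxj1, Dnah7b, Cfap298, Cfap300, Dnaaf3, Tekt5 and Tppp3). A further 9 were higher (Ccno, Dynlrb2, Zmynd10, Rsph4a, Cfap126, Cfap20, Cfap36, Cfap410 and Tmem212). Over all tested genes 27.1% were lower and 28.3% higher, so both shares of these genes, 11.5% and 14.8%, were below the background. The median log2 fold change was 0.11. The groups did not overlap for 5 genes that were lower and 9 that were higher, against 25.6% and 26.7% of all tested genes. The count of 7 dropped to 4 without mouse 3 at 30000 fibers. For Tekt5 the difference between the doses (-1.21, adjusted p = 0.0245) was lost without mouse 1 at 12000 fibers or mouse 3 or 4 at 30000 fibers (adjusted p of 0.0692, 0.0763 and 0.101).

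Set on the same scale per transcript length, the levels spanned a wide range. In control libraries Cfap298 had 23.5 ± 1.74 CPM per kilobase, Tppp3 23.4 ± 1.66 and Foxj1 23.1 ± 4.75 (SD, n = 4), values that differed by less than their spread. Cfap36 followed with 16.5 ± 0.277 and Cfap20 with 14.0 ± 1.17 CPM per kilobase of its retained-intron transcript. Cfap61 was the lowest of the 64 genes with a known length, at 0.294 ± 0.0886 CPM per kilobase. With 30000 fibers Cfap36 led with 30.9 ± 3.20 CPM per kilobase, followed by Cfap20 with 14.2 ± 1.60, Tppp3 with 12.2 ± 3.91 and Cfap298 with 12.1 ± 0.969. Foxj1 was ninth at that dose, with 5.57 ± 1.05 CPM per kilobase.

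Transcript length moved with the result. Many axoneme proteins are very large, and the 16 tested genes with a transcript of 6000 bases or more had a median log2 fold change of -1.81 with 12000 fibers and -1.69 with 30000 fibers. The 19 tested genes under 2000 bases had medians of -0.57 and -0.79. Across 59 tested genes with a known length, Spearman's rho between length and log2 fold change was -0.374 with 12000 fibers and -0.459 with 30000 fibers. Over 13669 tested genes it was -0.0245 and -0.264, and in both sets the points share the same libraries and are not independent. With 30000 fibers the shortest of 5 equal length classes of all genes had a median of 0.53 and the longest -0.23, against 0.032 and -0.016 with 12000 fibers. Its part in the changes at 30000 fibers was measured only by removing the trend, which moved the median of these genes to -1.27.

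**Figure D4:**
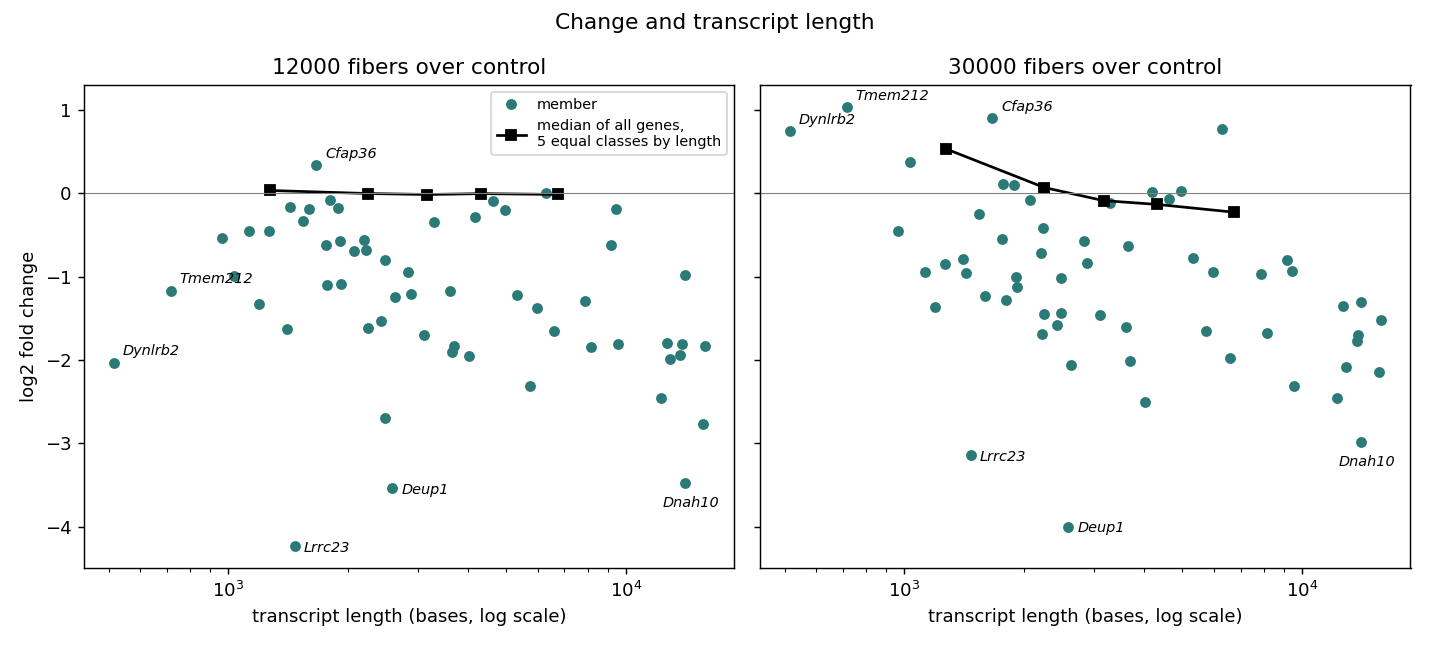
Log2 fold change over control (y axis) against transcript length in bases (x axis, log scale) for 59 tested genes (points), with the median of all genes in 5 length classes of equal size (squares); 12000 fibers at left, 30000 fibers at right. The all-gene line is flat at left and slopes from 0.53 to -0.23 at right, while most points lie below it in both panels.

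A wider list of cilium genes was examined beside these. Of 74 listed genes 64 were tested, and with 12000 fibers 37 were lower and 1 higher, with a median log2 fold change of -0.60, where 19.3% and 18.7% of all tested genes were called. With 30000 fibers 31 were lower and 7 higher, with a median of -0.60, where the shares of all tested genes were 33.4% and 32.2%. Over 12000 fibers, 30000 fibers gave 7 lower (10.9%, against 27.1% of all tested genes) and 17 higher (26.6%, near the 28.3% of all). Ccdc78, a deuterosome protein, had 6.71, 4.76, 4.30 and 5.96 CPM in control, 1.34, 0.533, 0.418 and 1.47 CPM with 12000 fibers, and 1.57, 1.76, 0.294 and 2.00 CPM with 30000 fibers. No fiber library reached the control range (-2.45 ± 0.32 and -1.98 ± 0.40, adjusted p = 6.33e-06 and 1.97e-04). Mapk15, a kinase of the ciliary base, had 9.48, 7.78, 7.29 and 8.09 CPM in control, 3.58, 2.53, 3.07 and 3.61 CPM with 12000 fibers, and 3.13, 1.76, 2.65 and 3.00 CPM with 30000 fibers. It fell at both doses (-1.33 ± 0.17 and -1.63 ± 0.23, adjusted p = 6.76e-06 and 4.32e-06). Dnaic2, an outer arm intermediate chain, had 5.67, 4.47, 4.04 and 4.75 CPM in control, 1.43, 1.07, 1.67 and 1.34 CPM with 12000 fibers, and 2.35, 1.06, 2.65 and 2.67 CPM with 30000 fibers. Its control libraries also stood above all fiber libraries (-1.77 ± 0.24 and -1.10 ± 0.28, adjusted p = 8.55e-06 and 0.00181).

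Lrrc71 had 8.44, 4.28, 2.86 and 6.17 CPM in control, 0.896, 0.266, 0.557 and 0.937 CPM with 12000 fibers, and 1.57, 0.353, 1.76 and 1.67 CPM with 30000 fibers. It had the largest fall of this list at 12000 fibers (-2.96 ± 0.38, adjusted p = 8.20e-06) and was lower at 30000 too (-2.00 ± 0.45, adjusted p = 6.59e-04). Ccdc153 averaged 4.49, 0.744 and 1.92 CPM over the doses and Spata18 averaged 6.41, 0.999 and 2.49 CPM, and both were lower at each dose.

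Genes of the wider list that were higher with 30000 fibers included E2f4, E2f5, Dnaaf5, Morn2, 1110017D15Rik and Tuba1a. E2f4 and E2f5, which work with the multicilin complex and also in the cell cycle of other cells, averaged 52.9, 56.4 and 81.1 CPM and 15.3, 16.8 and 26.5 CPM in control, 12000 and 30000 fibers, with changes at 30000 fibers of 0.62 ± 0.074 (adjusted p = 4.59e-07) and 0.79 ± 0.11 (adjusted p = 2.04e-06). Tuba1a, an alpha-tubulin of many cell types whose reads may be shared with near-identical copies, had 17.8, 25.7, 20.3 and 19.9 CPM in control, 41.2, 40.7, 35.3 and 30.9 CPM with 12000 fibers, and 144, 188, 153 and 122 CPM with 30000 fibers. The groups rose in order of dose without overlap (0.82 ± 0.14 and 2.85 ± 0.14, adjusted p = 3.65e-04 and 1.43e-10), and it was the 1 gene of this list that was higher with 12000 fibers. Morn2 averaged 4.54, 5.04 and 11.6 CPM, 1110017D15Rik 0.932, 0.720 and 2.44 CPM and Dnaaf5 34.0, 36.9 and 45.7 CPM, each called higher at 30000 fibers.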

How the data were processed

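RNA of 12 epithelial libraries was sequenced with stochastic label barcodes, per the labels' protocols. Tools named by the authors, per the submitters' processing notes, are HISAT2 2.1.0, cutadapt 1.12, FastQC and bcl2fastq, with mm10 as the build. The sources used here do not name the counting program, annotation, strand setting or use of the barcodes, so reads of overlapping or near-identical genes may be shared. The deposited values were raw counts per Ensembl transcript, whole numbers not normalized or pooled by the authors. The 12 fibroblast libraries were not analysed here, because the fibroblast columns are not in the order of the transcript identifiers.

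Each gene was represented by its highest transcript over the epithelial libraries. One edgeR 4.0.16 fit (R 4.3.3) held all 12 libraries, with filterByExpr by group (minimum count 10), TMM, robust quasi-likelihood F tests, 9 residual degrees of freedom and Benjamini-Hochberg adjustment over 13759 genes. The steps were tested on simulated data. DESeq2 1.42.0, RLE size factors, no filter, summed transcripts, the mouse as a block, a fibroblast covariate, a length trend (value only) and fits without a gene class, a group or a library were the alternatives. The labels number the mice 1 to 4 at each dose, and equal numbers were taken as the same mouse. Deviations from group means correlated at -0.022 to 0.166 between libraries of the same mouse (12 pairs) and at -0.197 to 0.131 between libraries of different mice (36 pairs). Values per library are given for Foxj1, Rfx2, Rfx3, Myb, Ccno and Deup1, for up to 3 genes per role by level and up to 2 by p with 12000 fibers, and for each gene called higher, with 6 other cilium genes by p and those called higher, of which 1 is not reported here. Genes, roles and lists were chosen with earlier results of these data known. Genome positions are from GENCODE M21 (GRCm38, the mm10 assembly), and 2 genes, Cfap47 and Cfap410, were not found there by symbol.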

Additional observations from a re-analysis of the deposited data

Results flagged for a closer look

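In groups of 4 libraries, a library was singled out when its gap to the nearest other library made up more of the group's whole range than Dixon's critical value. Of 132 such groups 6 met this, where chance alone gives about 1 in 20. Deup1 had 0.179 CPM in mouse 1 with 12000 fibers, below the other mice of that group, although each of these libraries held 2 counts. Dnaaf3 had 6.25 CPM in mouse 3 of the control group, lower than its other control libraries, and 5.47 CPM in mouse 1 with 12000 fibers, higher than the others there. Drc7 had 3.91 CPM in mouse 1 with 30000 fibers, above the other mice at that dose. Cfap97 had 25.7 CPM in mouse 4 of the control group, below the other controls, which lay within 0.1 CPM of each other. The share of mitochondrially encoded counts was 14.3% in mouse 3 with 30000 fibers, lower than in the other mice at that dose and above every control library.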

How the results depend on the processing

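Counts and medians kept their direction in all alternatives run except the median of 30000 over 12000 fibers, which ran from -0.025 to 0.23 when single libraries were left out. The fibroblast covariate moved most: with 12000 fibers over control 13 genes were lower and 0 higher with a median of -0.82, with 30000 fibers over control 7 were lower with a median of -0.67, and 30000 over 12000 fibers gave 14 higher with a median of 0.38. The cause was not tested. Leaving out each library in turn, the median of 30000 fibers over control ran from -1.25 to -0.98 and the count lower with 30000 than with 12000 fibers from 4 to 7. Removing the length trend gave a median of -1.27 at 30000 fibers, and summed transcripts gave 11 other cilium genes higher at 30000 fibers over control. With the mouse as a replicate block 44 genes were lower and 1 higher with 12000 fibers, 39 and 4 with 30000 fibers, and 7 and 10 between the doses. The block changed the calls of Rfx2, Dynlrb2, Rsph10b and Cfap65, given above, and no other among the genes described. DESeq2 gave 43 and 1, 40 and 3, and 6 and 9.

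Several genes changed sign. With the fibroblast covariate Rfx2 was 0.035 at 12000 and 0.51 at 30000 fibers, Cfap298 0.0096 at 12000 fibers, and at 30000 fibers Rsph10b 0.83, Rsph4a 0.52, Cfap69 -0.14, Spag17 0.51, Cfap100 0.51 and Cfap97 0.019. With summed transcripts, Rfx2 was 0.022, Cfap126 -0.0083 and Cfap97 0.0097 at 30000 fibers. Cfap410 at 12000 fibers was 0.0021 with mitochondrial genes left out, 0.0043 in a fit of 2 groups, and with the length trend removed 0.00014. With that trend removed, Tmem212 was -0.30, Dynlrb2 -1.07, Cfap126 -0.42, Zmynd10 -0.11 and Cfap97 0.058 at 30000 fibers. When single libraries were left out, the values over control ran from -0.0033 to 0.27 for Zmynd10, -0.16 to 0.13 for Cfap69, -0.037 to 0.072 for Cfap20 and -0.45 to 0.23 for Cfap100 at 30000 fibers, and from -0.068 to 0.058 for Cfap410 at 12000 fibers. For Zmynd10, Cfap69, Cfap20 and Cfap100 at 30000 fibers, and Cfap410 at 12000 fibers, the direction is therefore unresolved. The smaller libraries at 30000 fibers limit what low genes can show: a count of 0 there allows 0.882 to 1.17 CPM, against 0.292 to 0.391 CPM in control.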
